A study of Mus musculus with 6 samples.

Results

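The 10 genes described here make or fill MHC class I, the surface protein that displays peptides from inside the cell. They are the heavy chains H2-K1, H2-D1 and H2-T23, the light chain B2m, the peptide transporter subunits Tap1 and Tap2, the loading chaperone Tapbp, the immunoproteasome subunits Psmb8 and Psmb9, and the transcriptional regulator Nlrc5. They were chosen by name, and 10 of the 49585 rows of the table carry one of these names, with 0 numbered copies. All 10 were among the 14023 genes tested, which reached a normalized count of 1 or more in 3 or more libraries.

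The series holds RNA-seq of monocytes purified from the bone marrow of mice on a high-fat diet, in 3 Syk del/del and 3 Syk+/+ libraries. Syk encodes spleen tyrosine kinase, which passes on signals from immune receptors and integrins. The genotypes are Sykdel/del Rosa26CreER(T2)+/+ and Syk+/+ Rosa26CreER(T2)+/+, so both carry the tamoxifen-inducible Cre, which is expressed in the whole body. Deletion is therefore not limited to monocytes. By the study's methods, tamoxifen was given for 3 days at an age of 7 to 8 weeks and the diet began at 8 weeks of age, and the submitters give 8 weeks of diet for these cells. The sources used here do not say whether the Syk+/+ mice received tamoxifen or whether the 3 libraries of a genotype came from separate mice. If they did not, the p-values cover the spread of these samples alone, and that spread could be technical.

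A class I molecule is a polymorphic heavy chain held together with beta 2-microglobulin and a short peptide. Proteasomes cut cytosolic proteins into peptides, the TAP transporter carries them into the endoplasmic reticulum, and tapasin holds the empty heavy chain beside TAP until a peptide fits. Interferons raise transcription of nearly the whole pathway through IRF factors, and NLRC5, together with the RFX complex, acts on the promoters of the heavy chains and several of the loading genes. CD8 T cells and NK cells read the resulting complexes, and monocytes, like other leukocytes, carry them at high levels.

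Reads assigned to genes numbered 4168626 to 6254375 in the Syk del/del libraries (median 5870797) and 6805111 to 7071823 in the Syk+/+ libraries (median 6934932). A normalized count is a read count multiplied by 1 factor per library, with no correction for gene length. The smallest number of reads behind any member's value was 278, for Psmb9. The Syk row was counted at 4794, 5094 and 4712 in Syk del/del and at 4463, 5527 and 5427 in Syk+/+. The table has no values per exon, so the genotype labels cannot be checked by it. Of the 14 markers of non-classical monocytes, the patrolling subset, 9 were called lower in Syk del/del, where 0.349% of all tested genes were. The summed normalized count of the 14 was 11491 to 13771 in Syk del/del and 17046 to 23286 in Syk+/+. The marker lists were chosen with earlier results of these data known. This one holds Itgax, which the study reported as lower, so the count is no independent evidence of a change in the subset. Of 9 markers of resident macrophages, 2 were called lower, with sums of 1475 to 1763 in Syk del/del and 1899 to 2205 in Syk+/+. Of the 9 classical monocyte markers 0 were called, with sums of 148983 to 171648 in Syk del/del and 127212 to 142652 in Syk+/+. Among B cell markers Ms4a1 was at 0 in all 6 libraries, while Cd79b was counted at 44.3 to 79.6 in Syk del/del and 55.7 to 71.1 in Syk+/+. Of the 4 B cell markers tested 0 were called, but 4 were below 0, with a median log2 fold change of -0.71. Blnk, with 1 to 25 reads per library, had a log2 fold change of -1.70 (limma unadjusted p = 0.0047), without overlap between the genotypes. Among T and NK cell markers Ncr1 and Gzma were at 0, and Nkg7 was counted at 5.2 to 10.9 in Syk del/del and 1.9 to 7.4 in Syk+/+. Of the 6 T and NK cell markers tested 0 were called, with 4 below 0, 2 above and a median log2 fold change of -0.60. Cd4, with 2 to 18 reads per library, had a log2 fold change of -1.44 (limma unadjusted p = 0.0059), without overlap between the genotypes. Of 7 plasma cell markers 0 were called in limma and 4 had an unadjusted p under 0.05 with higher values in Syk del/del, among them Jchain with 420.1, 460.1 and 579 normalized counts in Syk del/del and 359, 217 and 184 in Syk+/+. Of 10 neutrophil markers 0 were called and 0 passed an unadjusted p of 0.05, with sums of 2155 to 3573 in Syk del/del and 2102 to 3092 in Syk+/+. In RNA of a whole cell preparation, fewer cells of a type and less RNA per cell cannot be told apart, and the part of these marker differences in the results that follow was not tested. The library Syk del/del replicate 1 held the lowest value of 21.9% and the highest of 23.1% of all tested genes, the largest shares of any library.

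Of the 10 genes, 8 lie in the MHC on chromosome 17, within 2116957 bp from Tapbp to H2-T23 (GRCm38). Psmb9, Tap1, Psmb8 and Tap2 follow each other within 34335 bp. B2m lies on chromosome 2 (chr2:122147686-122153083) and Nlrc5 on chromosome 8 (chr8:94434356-94527272). H2-K1 covers chr17:33996017-34000347 on the minus strand and H2-D1 covers chr17:35262730-35267499 on the plus strand. The gene models of Tap1 and Psmb9 point away from each other and share 212 bp. The library kit keeps the strand, but the sources used here do not give the strand setting of the counting. Reads in that stretch may therefore be counted for either gene. The same limit applies where exons overlap genes on the other strand. Psmb8 overlaps Gm20496 over 498 bp, and Tap2 overlaps Gm15821 over 533 bp and Gm20496 over 165 bp. Class I heavy chains also share sequence. Of all 50-base words in its annotated transcripts, H2-K1 shared 9.63% with other genes on the same strand, H2-D1 12.8% and H2-T23 13.6%, against 0% for B2m. The sources used here do not say how reads that match several genes were treated.

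Promoter sequences from RefSeq (GRCm38.p6), from 250 bases before to 50 after the annotated start, were matched for 8 of the 10 genes, and Tap2 and Nlrc5 had no entry. They are shown for the classical heavy chains H2-K1 and H2-D1, for the non-classical H2-T23 and H2-Q7 as a contrast, for their light chain B2m, and for Tap1, whose window shares 275 bases with that of Psmb9 on the other strand. Capitals mark letters matching 4 motifs on either strand: GGGGATTCCC, the NF-kB site of class I enhancer A as it stands in H2-K1; AANNGAAA, the core bound by IRF factors; TGACG, the half-site of a cAMP response element; and CCAAT. The motifs do not overlap in these windows.
H2-K1, chr17:34000298-34000597, minus strand: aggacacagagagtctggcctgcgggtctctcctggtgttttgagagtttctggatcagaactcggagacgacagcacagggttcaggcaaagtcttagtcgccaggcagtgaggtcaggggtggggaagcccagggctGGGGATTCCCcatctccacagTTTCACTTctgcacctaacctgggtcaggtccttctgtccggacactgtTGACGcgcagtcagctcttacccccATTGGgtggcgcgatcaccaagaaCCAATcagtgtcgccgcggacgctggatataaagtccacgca
H2-D1, chr17:35262844-35263143, plus strand: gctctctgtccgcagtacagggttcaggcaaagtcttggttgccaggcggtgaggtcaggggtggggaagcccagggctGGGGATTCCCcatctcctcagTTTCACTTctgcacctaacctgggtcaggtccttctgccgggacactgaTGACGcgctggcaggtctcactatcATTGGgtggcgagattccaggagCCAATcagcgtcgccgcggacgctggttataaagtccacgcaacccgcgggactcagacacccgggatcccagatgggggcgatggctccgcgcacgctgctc
H2-Q7, chr17:35438905-35439204, plus strand: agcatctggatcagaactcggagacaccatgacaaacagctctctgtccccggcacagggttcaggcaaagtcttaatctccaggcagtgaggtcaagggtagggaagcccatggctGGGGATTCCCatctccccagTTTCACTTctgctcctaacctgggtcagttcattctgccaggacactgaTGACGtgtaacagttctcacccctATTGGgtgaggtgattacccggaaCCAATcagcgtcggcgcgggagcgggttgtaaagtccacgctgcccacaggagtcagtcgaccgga
H2-T23, chr17:36032652-36032951, minus strand: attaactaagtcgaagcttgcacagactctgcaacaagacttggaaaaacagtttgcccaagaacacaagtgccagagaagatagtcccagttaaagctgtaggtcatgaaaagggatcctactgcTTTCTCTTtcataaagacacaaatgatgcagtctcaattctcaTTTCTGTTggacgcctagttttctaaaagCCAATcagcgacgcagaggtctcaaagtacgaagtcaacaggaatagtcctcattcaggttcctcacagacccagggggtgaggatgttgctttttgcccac
B2m, chr2:122147437-122147736, plus strand: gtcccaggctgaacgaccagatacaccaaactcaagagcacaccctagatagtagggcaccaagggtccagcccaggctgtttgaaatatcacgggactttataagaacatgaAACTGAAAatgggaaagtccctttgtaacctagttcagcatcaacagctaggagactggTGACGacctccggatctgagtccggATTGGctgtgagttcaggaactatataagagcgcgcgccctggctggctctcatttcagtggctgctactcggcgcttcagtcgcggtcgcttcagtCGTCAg
Tap1, chr17:34187306-34187605, plus strand: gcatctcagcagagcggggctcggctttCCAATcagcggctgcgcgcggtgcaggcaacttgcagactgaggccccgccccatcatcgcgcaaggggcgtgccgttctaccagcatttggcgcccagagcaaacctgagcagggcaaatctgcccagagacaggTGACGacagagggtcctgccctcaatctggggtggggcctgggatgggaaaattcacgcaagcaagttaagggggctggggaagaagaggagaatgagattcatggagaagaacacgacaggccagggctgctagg

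H2-K1 and H2-D1 carried the 4 motifs in the same order, NF-kB, IRF, cAMP response half-site and CCAAT, and 88.3% of 239 aligned bases were identical. Counted from the listed start, their first motif began at -111 in H2-K1 and at -171 in H2-D1. Among 27025 promoters of the same length, 0.104% held GGGGATTCCC, 24.2% AANNGAAA, 21.0% TGACG and 37.9% CCAAT. In this set 3 promoters held all 4 (0.0111%), those of H2-K1, H2-D1 and H2-Q7. B2m held the last 3 motifs without GGGGATTCCC. H2-T23 held AANNGAAA and CCAAT, and Tap1 held TGACG and CCAAT. Over the 8 members matched, GGGGATTCCC was in 2, AANNGAAA in 4, TGACG in 5 and CCAAT in 7. The motifs were picked from the known class I promoter elements with these promoters in view, and a match describes letters, not binding.

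Expressed per kilobase of exon, the 10 genes were all among the 2737 highest of the 13666 tested genes with a known length. Over the 6 libraries B2m averaged 3776 normalized counts per kilobase and H2-D1 3731, ranks 30 and 33. H2-K1 followed at 1430 (rank 134) and Tapbp at 741 (rank 302). Tap1 averaged 269, Psmb8 233 and H2-T23 225, and Nlrc5 131, Tap2 124 and Psmb9 116 normalized counts per kilobase (ranks 2417, 2557 and 2737). The heavy and light chains B2m and H2-D1 thus stood side by side, as did Tap1, Psmb8 and H2-T23 and the last 3 genes, with gaps inside each of these sets smaller than or close to the spread between libraries. The exon length is that of all annotated transcripts joined, so these levels are approximate.

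None of the 10 genes differed between Syk del/del and Syk+/+ monocytes at an adjusted p under 0.05 in limma (0 of 10 lower and 0 of 10 higher). Over all tested genes 0.371% were called, 0.349% lower and 0.0214% higher. At an unadjusted p under 0.05, 1 of the 10 was lower, B2m, and 0 were higher, where 5.26% of all genes passed, 3.32% lower and 1.94% higher. Groups overlapped for every member, whereas 5.19% of all genes had no overlap with Syk del/del lower and 4.94% with Syk del/del higher. By sign alone, 7 of the 10 were below 0 on the log2 scale and 3 above, with a median log2 fold change of -0.036, beside 49.7% of all genes below 0 and a median of 0.0010. By limma-voom on reads recovered from the table, 0 of the 10 were called, with 1 at an unadjusted p under 0.05. The plot of normalized counts by genotype shows this overlap gene by gene.

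**Figure D1:**
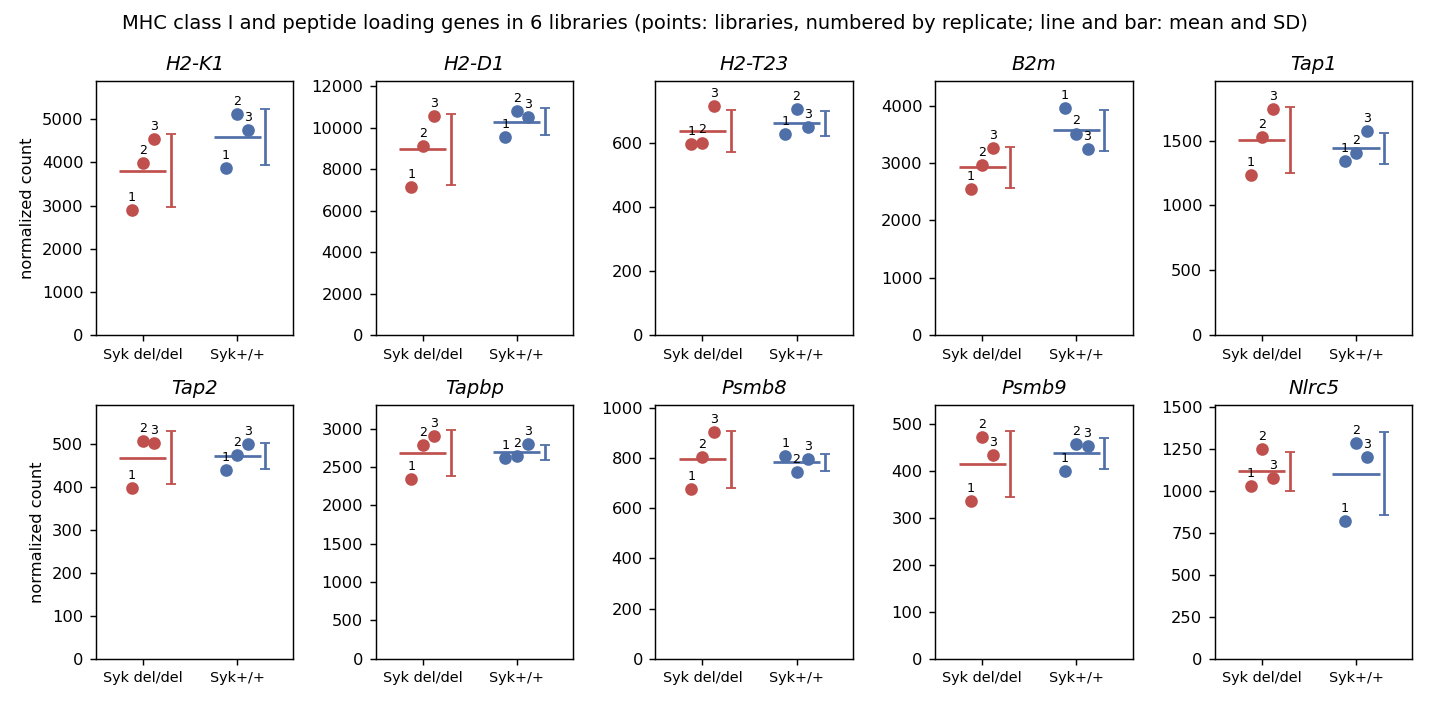
Normalized count (vertical axis, from 0) of each of the 10 genes in 3 Syk del/del (red, left) and 3 Syk+/+ (blue, right) libraries. Points are libraries numbered by replicate, the horizontal line is the mean and the bar the SD. The values of the genotypes overlap in all 10 panels, and the point of Syk del/del replicate 1 is the lowest of all 6 in 9 of them.

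H2-K1, a classical heavy chain, had 2901, 3994 and 4546 normalized counts in Syk del/del and 3871, 5129 and 4763 in Syk+/+. Syk del/del replicate 1 was the lowest of the 6, and Syk del/del replicates 2 and 3 lay within the Syk+/+ range. The means were 3814 ± 837 in Syk del/del and 4588 ± 647 in Syk+/+ (SD, n = 3 each). The log2 fold change was -0.28 (standard error 0.15, 95% interval -0.61 to 0.047, limma adjusted p = 0.99).

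H2-D1, the other classical heavy chain in the list, had 7158, 9131 and 10564 normalized counts in Syk del/del and 9555, 10809 and 10509.9 in Syk+/+. Its Syk del/del replicates 1 and 2 were below every Syk+/+ library, and replicate 3 was above 2 of them. This gave a log2 fold change of -0.22 (standard error 0.14, 95% interval -0.51 to 0.077). Without Syk del/del replicate 1 the log2 fold changes were -0.097 for H2-K1 and -0.065 for H2-D1, and without Syk del/del replicate 3 they were -0.42 and -0.35 in the same order.

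H2-T23, which encodes the non-classical Qa-1 heavy chain that presents peptides to the NK receptor CD94/NKG2A, had 596, 602 and 715 normalized counts in Syk del/del and 629, 706 and 651 in Syk+/+. The highest of the 6 values was in Syk del/del replicate 3 and the lowest in replicate 1 of the same genotype. Its log2 fold change was -0.057, with a 95% interval from -0.27 to 0.16, and it ran from -0.14 to -0.0098 when 1 library was left out.

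B2m, the light chain shared by all of these heavy chains, had 2539, 2963 and 3263 normalized counts in Syk del/del and 3956, 3514 and 3249.9 in Syk+/+. All 3 Syk del/del libraries were below the Syk+/+ mean, but the highest of them exceeded the lowest Syk+/+ library by a small margin. The means were 2922 ± 364 in Syk del/del and 3573 ± 357 in Syk+/+ (SD, n = 3 each), and the log2 fold change was -0.29 (standard error 0.11, 95% interval -0.53 to -0.054). In limma the unadjusted p was 0.020 and the adjusted p 0.74, and the adjusted p stayed between 0.45 and 1.00 over the 17 alternatives. Leaving out any 1 library gave log2 fold changes between -0.38 and -0.20.

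Tap1 and Tap2 form the peptide transporter. Tap1 had 1236, 1525 and 1742 normalized counts in Syk del/del and 1345, 1402 and 1573 in Syk+/+, and Syk del/del held both the lowest and the highest library. Its log2 fold change was 0.049 (standard error 0.12, 95% interval -0.21 to 0.30), and it was 0.18 without Syk del/del replicate 1 and -0.065 without Syk del/del replicate 3. Tap2 had 396, 506 and 501 normalized counts in Syk del/del and 439, 474 and 498 in Syk+/+, again with both extremes in Syk del/del. Its log2 fold change was -0.016 (95% interval -0.26 to 0.23).

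Tapbp, which encodes tapasin, had 2347, 2793 and 2909 normalized counts in Syk del/del and 2623, 2650.1 and 2805 in Syk+/+. The 3 Syk+/+ values lay inside the range of the Syk del/del values. Tapbp had a log2 fold change of -0.011 (standard error 0.098, 95% interval -0.22 to 0.20), so that fold changes below 0.857 or above 1.15 lay outside the interval. Exons of Tapbp overlap the antisense gene Gm19412 over 904 bp, and those of Zbtb22 on the same strand over 149 bp, which counting by strand would not separate.

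Psmb8 and Psmb9 replace the catalytic subunits Psmb5 and Psmb6 in the immunoproteasome and favour peptides with ends that class I binds. Psmb8 had 677, 803 and 905 normalized counts in Syk del/del and 809, 743 and 796 in Syk+/+, with a log2 fold change of 0.014 (95% interval -0.22 to 0.25). Psmb9 had 336, 473 and 434 normalized counts in Syk del/del and 400.2, 458 and 454 in Syk+/+, with a log2 fold change of -0.091 (95% interval -0.36 to 0.18). In both genes the Syk del/del libraries spread over a wider range than the Syk+/+ libraries and enclosed them.

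Nlrc5, the class I transactivator, had 1029, 1250 and 1074 normalized counts in Syk del/del and 822, 1286 and 1200 in Syk+/+. It was the one member whose lowest value was not in Syk del/del replicate 1 but in Syk+/+ replicate 1. Its log2 fold change was 0.041 (standard error 0.14, 95% interval -0.27 to 0.35), and without Syk+/+ replicate 1 it was -0.16.

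Ratios within a library, from which library scaling cancels, overlapped between the genotypes for all 4 pairs compared. Psmb8 was counted 2.75, 3.41 and 3.61 times as often as Psmb5 in Syk del/del and 2.74, 3.36 and 2.85 times in Syk+/+. The difference of the mean log2 ratio was 0.12. For Psmb9 to Psmb6 the difference was -0.058, for Psmb10, the third immunoproteasome catalytic subunit, to Psmb7 it was -0.085, and for B2m to the sum of H2-K1 and H2-D1 it was -0.056. Exact two-sided permutation tests gave p = 0.4, 0.8, 0.8 and 0.9 in this order, each 0.9 after adjustment over the 4 ratios, in a design of 3 against 3 libraries whose smallest possible p is 0.1. With 1 library left out, the difference ran from 0.043 to 0.24 for Psmb8 to Psmb5, and it took both signs for the other ratios, from -0.15 to 0.086 for Psmb9 to Psmb6, from -0.17 to 0.021 for Psmb10 to Psmb7 and from -0.14 to 0.092 for B2m to the heavy chains.

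**Figure D2:**
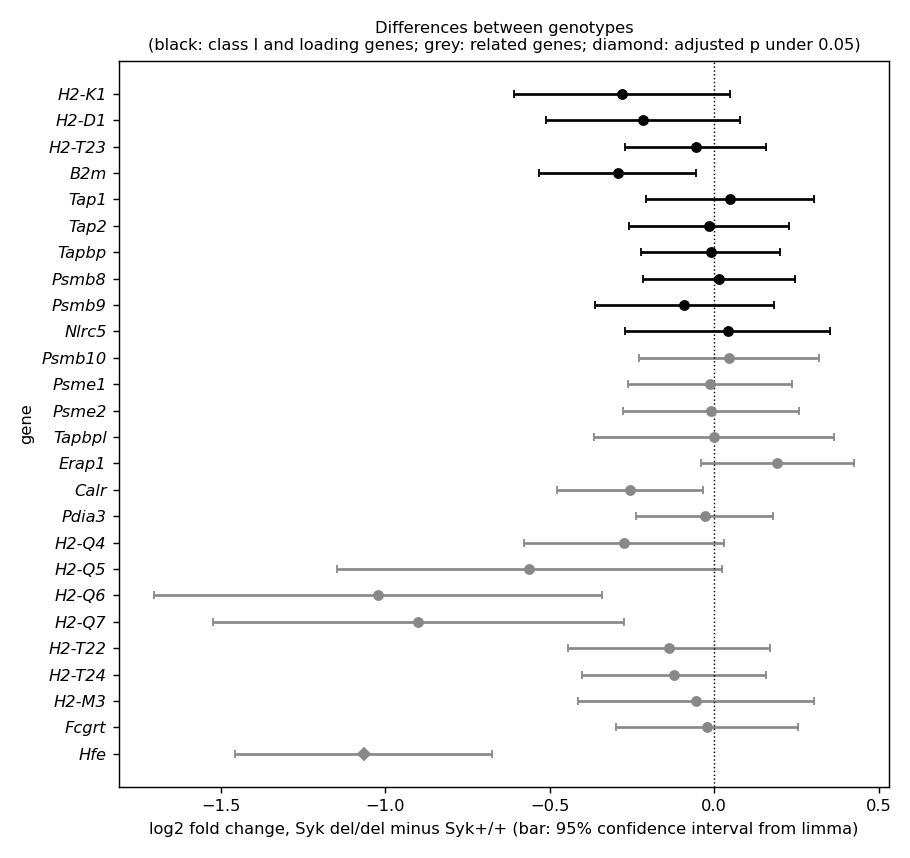
Log2 fold change, Syk del/del minus Syk+/+ (horizontal axis), with its 95% confidence interval from limma, for the 10 genes (black) and 16 related genes (grey), and a diamond for an adjusted p under 0.05. All black intervals but that of B2m cross 0, H2-Q6 and H2-Q7 lie near -1, and Hfe is the one diamond.

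The 10 genes shared 1 low library. In Syk del/del replicate 1, all 10 were below their own mean over the 6 libraries, by 0.27 on the log2 scale on average, and 9 of the 10 had their lowest value there, where 21.9% of all tested genes had theirs. The mean deviation was 0.028 in Syk del/del replicate 2 and 0.11 in replicate 3, and -0.053, 0.095 and 0.088 in Syk+/+ replicates 1, 2 and 3. Deviations in Syk del/del replicate 1 were deepest for H2-K1 (-0.51), H2-D1 (-0.41) and B2m (-0.34) and smallest for Nlrc5 (-0.094). This library had 5870797 reads assigned to genes, the middle value of its genotype. Of the 10 neutrophil markers, 9 had their highest value in it, for example Ltf, which encodes lactoferrin, with 320.3, 51.1 and 45.3 normalized counts in Syk del/del and 191, 26.9 and 86.7 in Syk+/+. Of the 9 classical monocyte markers, 5 were highest there, Vcan among them with 7031, 3135 and 2906 normalized counts in Syk del/del and 4749, 2834.5 and 2197 in Syk+/+. The part of these markers in the low values was not tested. The number of the 10 genes at an unadjusted p under 0.05 in limma was 0 without Syk del/del replicate 1 and 3 without Syk del/del replicate 3, with 0 called in both cases. Highest values were spread out: 4 genes peaked in Syk del/del replicate 3, 2 in Syk del/del replicate 2, 3 in Syk+/+ replicate 2 and 1 in Syk+/+ replicate 1. The SD of the log2 values was larger in Syk del/del than in Syk+/+ for 9 of the 10, reaching 0.33 against 0.21 for H2-K1. The median over the 4485 genes averaging 300 or more normalized counts was 0.11 in Syk del/del and 0.097 in Syk+/+. Nlrc5 was the exception, with 0.15 in Syk del/del and 0.35 in Syk+/+. The 9 genes are those with their lowest value in Syk del/del replicate 1, so the larger SD is not a separate observation. The share of all genes with a larger SD in Syk del/del was not counted.

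**Figure D3:**
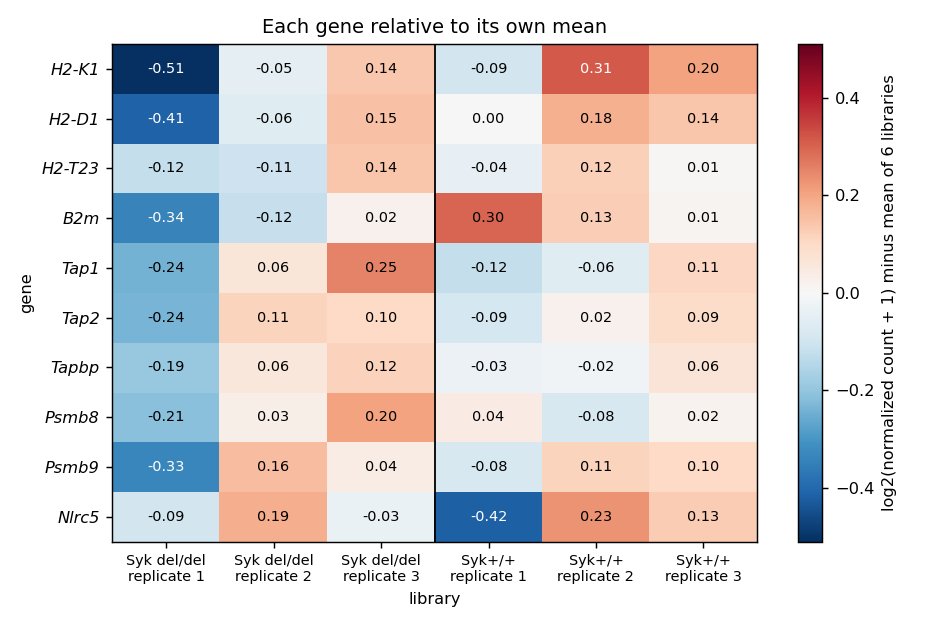
Each gene's log2(normalized count + 1) in each library minus its mean over the 6 libraries (colour and printed value), with the 3 Syk del/del libraries left of the line and the 3 Syk+/+ libraries right of it. The column of Syk del/del replicate 1 is below 0 for all 10 genes, down to -0.51 for H2-K1, and the lowest value of Nlrc5 is in Syk+/+ replicate 1.

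Genes outside the list that tracked the mean of the 10 most closely were Daxx, Mndal, Ogfr, Bst2 and Ly6e, among the 7433 genes averaging 100 or more normalized counts. Their Pearson r with the members' mean over the 6 libraries was 0.997, 0.996, 0.991, 0.984 and 0.984, values that describe 6 points which share the low library. Daxx, a chaperone of histone H3.3, lies 308 bp from Tapbp, and Bst2 encodes tetherin, an interferon-induced restriction factor. Bst2 had 164, 266 and 287 normalized counts in Syk del/del and 211, 269 and 275 in Syk+/+, with the lowest value in Syk del/del replicate 1. Ly6e had 7648, 10102 and 10993 normalized counts in Syk del/del and 9917, 11164 and 10665 in Syk+/+, with the same low library. The 5 genes were not called in limma.

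Most interferon-induced genes shared that low library. Of 33 interferon-induced genes, 26 had their lowest value in Syk del/del replicate 1, as did 6 of 10 class II and class II loading genes, 8 of 9 general monocyte markers and 2 of 19 other peptide loading and trimming genes. The last list went the other way, with 11 of the 19 at their highest value in that library, where 23.1% of all tested genes had theirs. None of the 33 interferon-induced genes was called in limma, and 4 were lower at an unadjusted p under 0.05, namely Oas3, Ifi44, Oas2 and Rsad2, while 0 were higher. By sign, 28 of the 33 were below 0, beside 49.7% of all genes, with a median log2 fold change of -0.15. Oas3, a sensor of double-stranded RNA, had 884.5, 1086 and 1211 normalized counts in Syk del/del and 1137, 1662 and 1461 in Syk+/+ (log2 fold change -0.42, standard error 0.14, limma adjusted p = 0.56). Its Syk del/del replicate 3 lay above the lowest Syk+/+ library.

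Among 11 other class I heavy chain genes with enough counts, 0 were called, 7 were below 0 and the median log2 fold change was -0.12. At an unadjusted p under 0.05, 2 were lower and 0 higher. H2-Q6, a non-classical gene of the Qa region, had 58.7, 93.9 and 172 normalized counts in Syk del/del and 144, 282 and 198 in Syk+/+ (log2 fold change -1.02, standard error 0.32, limma unadjusted p = 0.0065 and adjusted p = 0.42). H2-Q7, which encodes Qa-2, had 111, 147 and 231 normalized counts in Syk del/del and 185, 459 and 291 in Syk+/+ (log2 fold change -0.90, standard error 0.29, limma unadjusted p = 0.0083 and adjusted p = 0.49). In both genes Syk del/del replicate 3 exceeded the lowest Syk+/+ library. H2-Q6 was at -0.65 without Syk del/del replicate 1 and -1.42 (limma adjusted p = 0.054) without Syk del/del replicate 3, and H2-Q7 was at -0.57 without Syk+/+ replicate 2. H2-Q5 and H2-Q4 had log2 fold changes of -0.56 (95% interval -1.15 to 0.024) and -0.27 (95% interval -0.58 to 0.030). With 1 library left out they ran from -0.87 (without Syk+/+ replicate 1) to -0.35 (without Syk+/+ replicate 2) for H2-Q5 and from -0.42 (without Syk+/+ replicate 1) to -0.16 (without Syk del/del replicate 1) for H2-Q4.

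These Qa genes sit close together and resemble each other, which limits how far the rows can be read one by one. H2-Q4 to H2-Q7 span 64157 bp, and the promoters of H2-Q6 and H2-Q7 were identical at 97.7% of 260 aligned bases. The share of 50-base words that occurred in other genes on the same strand was 36.4% for H2-Q5 and 32.0% for H2-Q6. It was 26.4% for H2-Q7 and 21.8% for H2-Q4. H2-Q5 is annotated as a polymorphic pseudogene. The rows of these genes are uncertain to that extent. The H2-Q7 promoter matched that of H2-K1 at 86.6% of 253 aligned bases, and the log2 fold changes of these 2 genes were -0.90 and -0.28, a difference that was not tested.

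Hfe was the one gene of the class I family that passed the test. Its product, a class I-like heavy chain that binds B2m but no peptide, takes part in sensing iron load. Hfe had 111, 139 and 197 normalized counts in Syk del/del and 298, 350.5 and 268 in Syk+/+, with every Syk del/del library below every Syk+/+ library. Its log2 fold change was -1.07 (standard error 0.18, 95% interval -1.46 to -0.68, limma adjusted p = 0.022), a fold of 0.478. The adjusted p was 0.023 in limma-voom and without Syk del/del replicate 1. It was 0.12 without Syk del/del replicate 2, 0.15, 0.17 and 0.051 without Syk+/+ replicates 1, 2 and 3, 0.48 without the trend and 0.30 on thinned reads. The other 5 class I-like genes tested, Fcgrt, Mr1, Cd1d1, Ulbp1 and Raet1e, were not called.

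No further gene of the loading machinery passed the test. Of 19 other peptide loading and trimming genes 0 were called, and 1, Calr, was lower at an unadjusted p under 0.05 and 0 were higher. Their log2 fold changes had a median of 0.013. Calr, the chaperone calreticulin, had 3284, 3357 and 2644 normalized counts in Syk del/del and 3773, 3583 and 3671 in Syk+/+ (log2 fold change -0.26, 95% interval -0.48 to -0.033, limma adjusted p = 0.80), with no overlap between the genotypes. Erap1, which trims peptides in the endoplasmic reticulum, had 616, 524 and 535 normalized counts in Syk del/del and 535, 503 and 431 in Syk+/+ (log2 fold change 0.19, 95% interval -0.041 to 0.42). Canx and Pdia3, the calnexin and ERp57 chaperones, had log2 fold changes of 0.011 and -0.029.

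Of 4 other immunoproteasome genes (Psmb10, the activator subunits Psme1 and Psme2, and the assembly factor Pomp) and of 33 constitutive proteasome genes, 0 were called and 0 passed an unadjusted p of 0.05 in limma. Their median log2 fold changes were -0.0028 and 0.020. The 4 immunoproteasome genes ranged from -0.013 for Psme1 to 0.043 for Psmb10.

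Upstream, 0 of 19 regulators of class I transcription were called or passed an unadjusted p of 0.05, with a median log2 fold change of -0.018. Rfx5, the DNA-binding subunit through which NLRC5 reaches class I promoters, had a log2 fold change of 0.15 (95% interval -0.21 to 0.50), Irf1 one of 0.013 (95% interval -0.32 to 0.35) and Nfkb1 one of -0.099 (95% interval -0.28 to 0.079). Of 10 interferon receptor, JAK and feedback genes 0 were called, and 1 was lower at an unadjusted p under 0.05, Socs3. Socs3, an inhibitor of cytokine signalling, had 51.0, 90.8 and 99.9 normalized counts in Syk del/del and 136, 371 and 96.9 in Syk+/+, with Syk+/+ replicate 2 far above the other 5 libraries and a log2 fold change of -1.12 (standard error 0.38, limma adjusted p = 0.60).

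**Figure D4:**
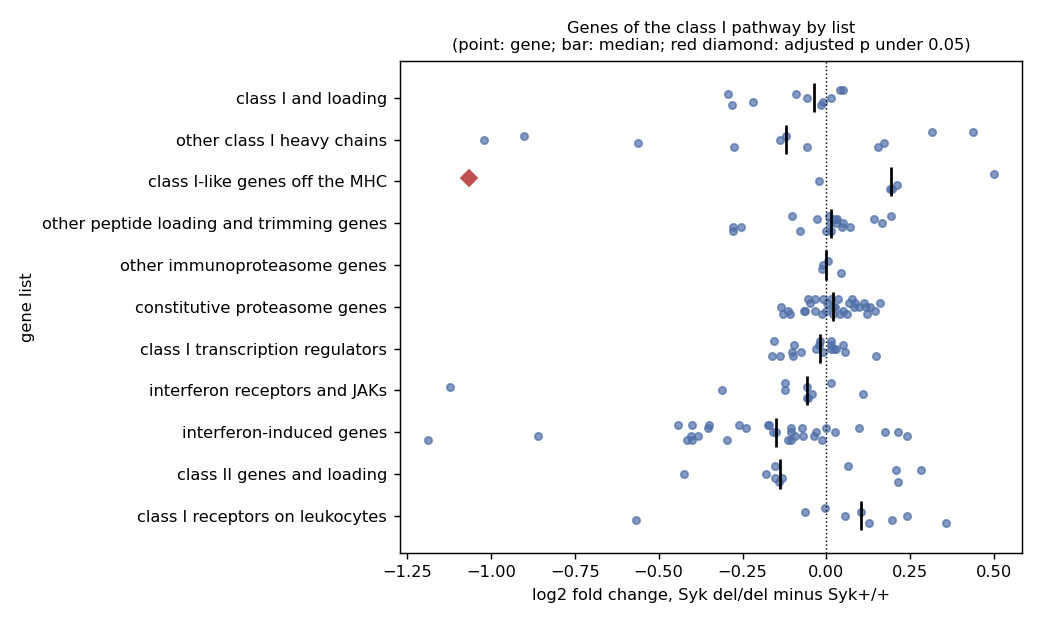
Log2 fold change, Syk del/del minus Syk+/+ (horizontal axis), of every tested gene in each list of the class I pathway (rows). Points are genes, black bars medians and the red diamond, Hfe, an adjusted p under 0.05. Medians run from -0.15 for interferon-induced genes to 0.19 for class I-like genes, and the proteasome and loading lists centre on 0.

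A list of class I receptors and other leukocyte receptors, such as Sirpa and Lilrb4a, had 9 genes tested. Of these 0 were called or passed an unadjusted p of 0.05 in limma. Their median log2 fold change was 0.10, the value of Lilrb4a, so it does not describe class I receptors alone. Of the 10 class II and class II loading genes likewise 0 passed either threshold, with a median of -0.14. Cd74, the invariant chain, had 1469, 2836 and 2474 normalized counts in Syk del/del and 2229, 2432 and 2606 in Syk+/+, and its lowest value was again in Syk del/del replicate 1.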

How the data were processed

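RNA-seq was analysed from 3 Syk del/del and 3 Syk+/+ libraries of bone marrow monocytes, grouped by the genotype in the labels. The authors removed rRNA, made strand-specific libraries, mapped reads to mm10 and counted and normalized them per gene. The sources used here do not give the annotation, the strand setting or the treatment of reads matching several genes. The authors deposited log2 values, log2(x + 1). The methods name TPM, but in every library all values were whole multiples of 1 step within 0.06 of a read, and x is therefore taken as reads times a factor of each library. The table also holds the p-values of the authors' own comparison (deposited with the log2 values), which were not used.

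The members and gene lists were chosen with earlier results of these data known. limma 3.58.1 in R 4.3.3 (empirical Bayes, variance trend, no covariate) compared the genotypes on this log2 scale in all 6 libraries over the 14023 genes that reached a normalized count of 1 in 3 or more libraries. Benjamini-Hochberg adjustment ran over all of them, with 0.05 as the threshold, and intervals have 95% confidence. Named were every member, the genes past the threshold in each other list and otherwise up to 4 with the smallest p, the partners of the ratios and the 5 genes most like the members' mean. Canx, Pdia3, Irf1, Rfx5 and the class I-like genes beyond this rule were added after their values were seen, as were the promoter motifs. Some items within the rule are not reported here. In simulated data for the same comparison, over 13596 genes, a log2 change of 1 was called in 80.0% of 100 genes and one of 2 in 95.0% of 100, with 4 of 13396 unchanged genes.

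The 17 alternatives were 3 other scalings, pseudocounts of 0.5 and 5, no filter, a mean normalized count of at least 10, no trend, limma-voom on recovered reads, a replicate block, reads thinned to 4168626 per library, and leaving out each library. Coordinates are those of GENCODE M21 (GRCm38), matched by name, and promoters those of RefSeq.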

Additional observations from a re-analysis of the deposited data

How the results depend on the processing

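None of the 10 genes was called under any of the 17 alternatives. The number of genes called over the whole table was 52 and became 6 without the trend, 34 with limma-voom on recovered reads and 0 on thinned reads (where 480 were lower and 312 higher at an unadjusted p under 0.05). It ran from 4 to 75 when 1 library was left out, namely 75 and 18 without Syk del/del replicates 1 and 2, and 5, 4 and 34 without Syk+/+ replicates 1, 2 and 3. The causes were not tested. Other scalings moved the median of all genes by less than 0.1.

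Members near 0 changed sign when 1 library was left out. The log2 fold change then ran from -0.065 to 0.18 for Tap1, -0.077 to 0.10 for Tap2, -0.072 to 0.083 for Tapbp, -0.085 to 0.12 for Psmb8, -0.19 to 0.052 for Psmb9 and -0.16 to 0.16 for Nlrc5. Quantile normalization gave 0.019 for Tapbp. H2-K1, H2-D1, H2-T23 and B2m kept their sign under all 17. Their sizes each ranged by over 1.5 times when 1 library was left out. The values were -0.42 to -0.097 for H2-K1 and -0.35 to -0.065 for H2-D1. For H2-T23 they were -0.14 to -0.0098, and for B2m -0.38 to -0.20.

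Deviations of same-numbered libraries correlated at 0.0435, 0.0419 and -0.0193 over 9986 genes, and those of other pairs at -0.109 to 0.0807. With 3 libraries per genotype, these values cannot decide whether same-numbered samples share a batch or preparation. With the replicate block 53 genes and 0 members were called. The replicate block put 2 members at an unadjusted p under 0.05. In that fit H2-Q6 and H2-Q7 had standard errors of 0.22 and 0.20, with limma adjusted p of 0.13 and 0.15. The smallest change simulated was 1 on the log2 scale, so recovery of smaller changes was not tested.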
